A study of Mus musculus with 830 samples.

Results

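At 21 somites, cells sorted from mouse embryos with Cre under Neurog3 control were compared with cells from embryos heterozygous for a Neurog3 GFP allele. The comparison took every cell labelled Ngn3Cre at 21 somites (106 cells) and every cell labelled Ngn3GFP HZ at 21 somites (149 cells), which is 255 of the 830 cells in the study. Ngn3Cre embryos had the genotype Ngn3-Cre; Ai6, in which Cre made under Neurog3 control switches on the Ai6 fluorescent reporter, and the reporter then stays on in the cell and its descendants. HZ embryos were Ngn3-GFP/+, with GFP on 1 Neurog3 allele. Both groups were of strain C57BL/6XC3H and tissue endoderm at 21SS, were dissociated with trypsin, stained for EpCAM and DAPI and sorted by flow cytometry, and were sequenced cell by cell with Smart-seq3xpress, a full-length method. How cells were gated on their reporters was not stated in the labels used here, so the way cells were picked and the genotype cannot be told apart.

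Neurog3 is a basic helix-loop-helix transcription factor that starts the endocrine programme in the pancreas and the gut. It is switched on briefly in epithelial progenitors, in which Notch signalling through Hes1 holds it down, and it turns on factors such as Neurod1, Insm1, Pax4, Fev and Isl1. Cells that pass through this state leave the cell cycle and make hormone, and the earliest of them in the foregut are known for glucagon.

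No label names an embryo, so each genotype at each stage counted as 1 pool and the 21-somite comparison has no replicate check. Reads were summed over the cells of a pool and divided by the pool total (CPM, the count in each 1000000 reads), and a gene was counted as different where its pools stood 4-fold or more apart with 20 CPM or more in the higher one. The pools held 47557137 reads (Ngn3Cre) and 63513086 reads (HZ), with a median of 423822 and 381250 reads and 7680.5 and 7046 detected genes per cell. In each group 17 cells had under 100000 reads, no cell gave more than 2.88% of its pool, and 0 cells were identical. Cells with Xist alone (26 in Ngn3Cre, 72 in HZ) and with Y-linked RNA alone (67 and 59) were present in each pool, so each came from more than 1 embryo. Epcam, an epithelial surface protein, stood at 472 CPM in Ngn3Cre and 491 CPM in HZ and reached 50 CPM in 96.2% and 92.6% of cells. Cells were stained for EpCAM before the sort, so these values do not check the endoderm label. No member of the blood, endothelial, notochord or anterior foregut lists reached 20 CPM in either pool. Intervals given for levels and shares are at 95% and cover counting error only.

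The promoters of 3 genes that the comparison turns on are shown first. They are Neurog3, after which both genotypes are named, Gcg (glucagon) as the hormone with the highest ratio, and Cdx2 (a hindgut and intestinal factor) among the 12 lowest ratios. Each line gives the 250 bases before the start of the gene from RefSeq GRCm38.p6, 5′ to 3′ on the gene's strand, and capitals mark the E-box CAGATG or its reverse complement CATCTG, the kind of site that Neurog3 and Neurod1 are known to bind. The regions are chr10:62132840-62133089 on the plus strand for Neurog3, chr2:62483654-62483903 on the minus strand for Gcg and chr5:147307250-147307499 on the minus strand for Cdx2.
Neurog3: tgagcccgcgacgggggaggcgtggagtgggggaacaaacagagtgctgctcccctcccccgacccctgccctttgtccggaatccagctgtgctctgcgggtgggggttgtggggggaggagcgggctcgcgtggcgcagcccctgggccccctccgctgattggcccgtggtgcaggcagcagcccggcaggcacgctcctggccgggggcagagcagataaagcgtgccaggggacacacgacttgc
Gcg: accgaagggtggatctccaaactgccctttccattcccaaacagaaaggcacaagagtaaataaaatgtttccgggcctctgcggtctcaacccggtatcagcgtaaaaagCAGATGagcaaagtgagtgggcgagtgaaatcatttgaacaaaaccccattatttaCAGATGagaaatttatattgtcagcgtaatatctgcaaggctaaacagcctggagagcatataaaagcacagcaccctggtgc
Cdx2: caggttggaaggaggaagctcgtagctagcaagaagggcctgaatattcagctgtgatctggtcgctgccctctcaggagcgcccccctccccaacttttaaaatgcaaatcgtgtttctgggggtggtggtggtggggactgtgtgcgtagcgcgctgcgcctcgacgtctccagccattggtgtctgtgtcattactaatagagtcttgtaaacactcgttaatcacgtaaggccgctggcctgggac
The Gcg window held 2 of these E-boxes and the other two windows none. Among genes 4-fold higher in Ngn3Cre the E-box stood in 9 of the 43 with a promoter in the table (20.9%), among genes 4-fold lower in 16 of 126 (12.7%), and among all genes tested in 651 of 6137 (10.6%). A Cdx site, TTTATG or CATAAA, stood in 3 of 43 (6.98%), 17 of 126 (13.5%) and 438 of 6137 (7.14%). A match is a description of letters in this window and does not show that a factor binds there.

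The Ngn3Cre pool held more RNA of the endocrine programme and less of gut progenitor, dividing and hepatic cells than the HZ pool. Of 7852 genes with 20 CPM or more in the higher pool, 51 were 4-fold higher in Ngn3Cre (0.65% of those tested) and 170 were 4-fold lower (2.17%). The median log2 ratio over all of them was 0.08, and 55.7% of them were higher in Ngn3Cre by any amount. Among genes seen at 10 CPM in at least 20% of the cells of the higher group, the 12 highest ratios belonged to Gm14616, Gcg, Cryba2, Eno2, Slc7a2, Fos, Mapk10, Tmem27, Slc39a2, Gipr, Pcsk2 and Actc1. The 12 lowest belonged to Apoa1, Tdh, Apoa2, Ins2, Pnliprp1, Slc40a1, S100g, Dab2, 2200002D01Rik, Rarb, Alpk3 and Cdx2. In summed pools, fewer cells of a type and less RNA per cell cannot be told apart, so shares of cells are given beside the levels.

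**Figure D1:**
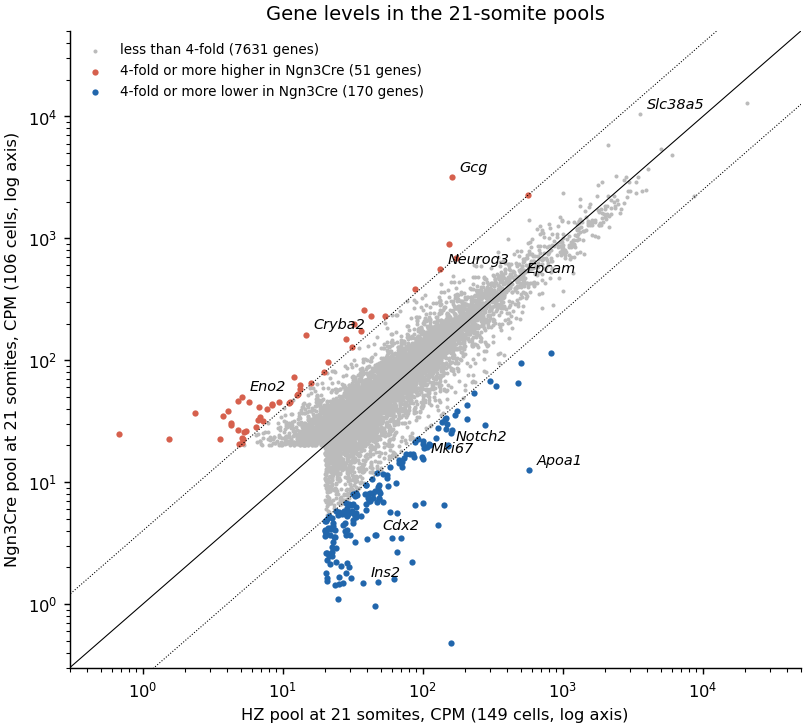
Level of each gene in the HZ pool (horizontal, CPM, log axis) and in the Ngn3Cre pool (vertical, CPM, log axis) at 21 somites, with 1 point a gene, equality as a solid line and 4-fold as dotted lines. The 51 genes 4-fold higher include Gcg, Cryba2 and Neurog3, the 170 genes 4-fold lower include Apoa1, Ins2, Cdx2, Notch2 and Mki67, and Epcam lies on the line of equality.

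Cells with several endocrine genes made up more of the Ngn3Cre pool. Cells were gated where 3 or more of Neurod1, Insm1, Fev, Isl1, Chga and Cryba2 stood at 50 CPM or more. It held 98 of 106 Ngn3Cre cells (92.5%, 85.7 to 96.7) and 78 of 149 HZ cells (52.3%, 44.0 to 60.6). None of the 6 genes reached 50 CPM in 1 Ngn3Cre cell and in 43 HZ cells, and all 6 did in 25 and in 6. The median depth was 417209 reads in gated Ngn3Cre cells, 367569 in gated HZ cells and 396825 in the other HZ cells. Only 8 Ngn3Cre cells lay outside the gate, too few to compare. These genes are also used by neurons, and the gate is not pure: 3 gated Ngn3Cre and 6 gated HZ cells had Epcam under 50 CPM, some of them with Mki67 and almost no Pax6 or Slc38a5. Gated values are therefore also given for the 95 and 72 gated cells with Epcam at 50 CPM, where they differ. That filter does not make the gate pure either. Several gated HZ cells with Epcam from 65.3 to 511 CPM had Pax6 at 0 to 3.96 CPM and Slc38a5 at 10.9 to 100 CPM. Among them, a cell with Epcam at 416 CPM had Pax6 at 0 CPM and Slc38a5 at 11.7 CPM. A gated Ngn3Cre cell with Epcam at 142 CPM had Pax6 at 5.69 and Slc38a5 at 82.6 CPM, and another with Epcam at 226 CPM had them at 7.52 and 86.4 CPM. With each cell of at least 100000 reads thinned to 100000 (89 and 132 cells, leaving out 17 in each group), shares at 50 CPM kept their order: Neurog3 reached it in 69.7% and 43.2% of cells, Gcg in 43.8% and 20.5%, Notch2 in 14.6% and 40.2%, and Mki67 in 6.74% and 26.5%, in Ngn3Cre and HZ.

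Neurog3 itself was 4.17-fold higher in the Ngn3Cre pool. Ngn3Cre cells ran from 0 to 3034 CPM with a median of 183, and HZ cells from 0 to 1198 CPM with a median of 18.6. The pools stood at 557 CPM (550 to 564) and 133 CPM (131 to 136). The ranges overlapped, but 22 Ngn3Cre cells and 2 HZ cells were at 1000 CPM or more, and 66.0% (56.2 to 75.0) against 42.3% (34.2 to 50.6) were at 50 CPM. Among gated cells the levels were 565 and 228 CPM, while HZ cells outside the gate had 49.2 CPM. HZ embryos carry GFP on 1 of their Neurog3 alleles, and the part of that allele in the difference was not tested. Neurog3 fell under 4-fold in some other ways of summing the cells, with log2 ratios of 1.53 to 2.07 against 2.06 here.

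Of 23 endocrine transcription factors with 20 CPM, 21 were higher in Ngn3Cre and 4 of them 4-fold, with a median log2 ratio of 1.29. Neurog3, Fev and Mlxipl were among the 4. Fev, an ETS factor of endocrine precursors, stood at 150 CPM in Ngn3Cre and 28.2 CPM in HZ, with 40.6% and 10.7% of cells at 50 CPM. Mlxipl, the glucose-responsive factor ChREBP, stood at 62.4 and 13.3 CPM. Pax6, which drives hormone genes, had a median of 570 CPM in Ngn3Cre cells and 6.58 CPM in HZ cells, with pools at 695 and 242 CPM. Pax4, which favours beta cell fate, stood at 165 and 59.1 CPM. Broader members differed less: Nkx2-2 had a log2 ratio of 0.69 and Insm1 of 0.60. Sox11 and Sox4, factors of immature cells, were the only 2 members lower in Ngn3Cre, at 371 against 997 CPM and 8.28 against 20.6 CPM.

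Hormones gave the highest list median, 2.01 over the 9 of 14 members with 20 CPM, with 5 members 4-fold higher and 1 4-fold lower. Gcg ran from 0 to 81087 CPM in Ngn3Cre cells (median 37.3) and from 0 to 8824 CPM in HZ cells (median 9.66). Its pools stood at 3187 and 161 CPM, a ratio of 19.8. Most of the difference lay in a small group of cells: 12 Ngn3Cre cells and 1 HZ cell were at 5000 CPM or more, and 5 cells held 68.9% and 84.5% of each pool's Gcg reads. The share at 50 CPM was 42.5% against 18.8%. Pyy, the gut and islet peptide YY, was spread more widely, with medians of 662 and 50.2 CPM, 45.3% and 19.5% of cells at 1000 CPM, and pools at 2264 and 563 CPM. Ghrl, ghrelin, was the most abundant hormone in both pools at 5801 and 2090 CPM, with medians of 556 and 266 CPM.

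Single cells of both groups held RNA of more than 1 hormone at 50 CPM or more. Xist and Y-linked RNA were found together in 6 Ngn3Cre and 2 HZ cells. The part of mixed cells or carried-over RNA in the hormone overlaps was not tested. Of Gcg cells at 50 CPM, 42 of 45 in Ngn3Cre and 23 of 28 in HZ also had Pyy, and 41 of 45 and 26 of 28 had Ghrl. Over all cells Pyy reached 50 CPM in 78.3% of Ngn3Cre and 50.3% of HZ cells and Ghrl in 91.5% and 69.8%, so in Ngn3Cre Ghrl was as common in all cells as in Gcg cells. Neurog3 was still at 50 CPM in 21 of the 45 Ngn3Cre and 17 of the 28 HZ Gcg cells. Fev was found with Neurog3 in 25 of 70 Neurog3 cells of Ngn3Cre (35.7%) and 9 of 63 of HZ (14.3%).

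The insulin genes went opposite ways. Ins1 stood at 26.7 CPM in Ngn3Cre and 4.77 CPM in HZ, in 6 and 5 cells at 50 CPM. Ins2 stood at 1.49 CPM (1.17 to 1.88) in Ngn3Cre and 37.7 CPM in HZ, 25.3-fold lower in Ngn3Cre, with 2 of 106 and 41 of 149 cells at 50 CPM. It was the only hormone that was 4-fold lower, and its ratio was larger among gated cells, at 1.603 against 65.0 CPM. At 24 somites the Ins2 log2 ratio was on the other side, at 0.83, and at 27 somites it was again below 0, at -1.51. Iapp (amylin) and Ppy (pancreatic polypeptide) were higher in Ngn3Cre at 46.7 against 4.77 CPM and 36.6 against 2.38 CPM, but 5 cells held 89.9% and 93.9% of the Ngn3Cre reads. Cck and Sct, gut hormones, differed by log2 ratios of 0.83 and 0.38, and Sst, somatostatin, was under 20 CPM in both.

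**Figure D2:**
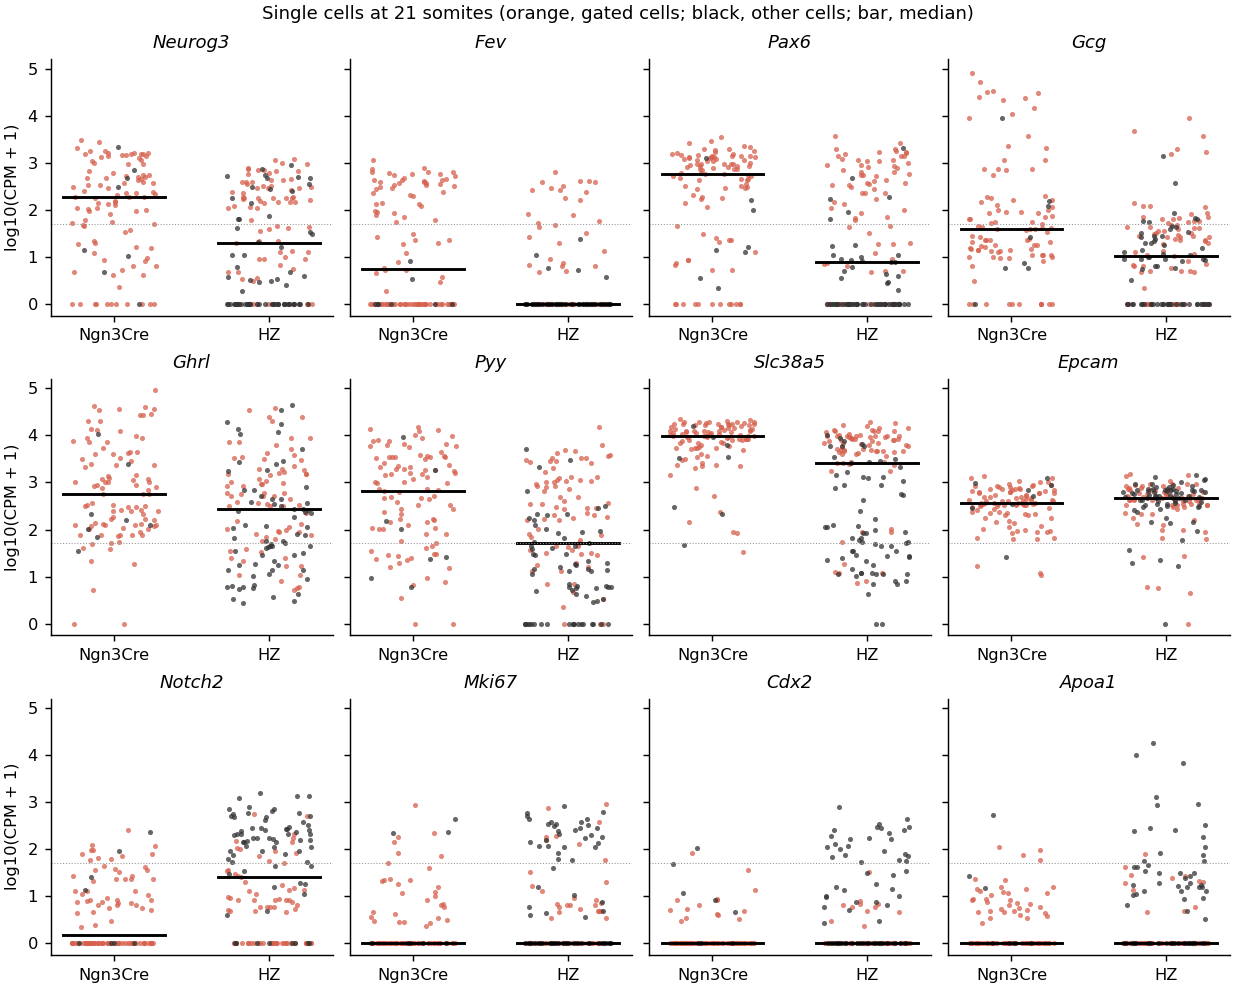
Level of 12 genes in each cell at 21 somites as log10(CPM + 1), for 106 Ngn3Cre cells (left in each panel) and 149 HZ cells (right), with gated cells in orange, other cells in black, the median as a bar and 50 CPM as a dotted line. The highest Gcg cells reach 81087 CPM in Ngn3Cre and 8824 CPM in HZ, and the black points are few in Ngn3Cre (8 cells) and many in HZ (71 cells).

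Genes of the secretory granule followed the hormones: 20 of 21 members were higher in Ngn3Cre, 3 of them 4-fold, with a median of 1.08. Pcsk2, the prohormone convertase that cuts proglucagon in alpha cells, stood at 198 and 32.5 CPM. Gnas, a stimulatory G protein subunit, stood at 96.5 and 21.1 CPM, and Ptprn, a granule membrane protein, at 65.1 and 16.0 CPM. Chga, chromogranin A, had medians of 193 and 3.97 CPM and pools at 311 and 86.8 CPM. Cryba2, a crystallin made in islet endocrine cells, was 11.2-fold higher at 163 against 14.6 CPM, with 51.9% and 11.4% of cells at 50 CPM.

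Channels and nutrient transport were higher as well. Of 6 ion channel genes with 20 CPM, 5 were higher in Ngn3Cre and 2 of them 4-fold (median 1.72): Kcnk3 at 32.5 against 6.61 CPM and Kcnk16 at 387 against 87.5 CPM, both leak potassium channels. Abcc8, the sulfonylurea receptor subunit, stood at 184 and 55.1 CPM. Of 9 genes of amino acid and glucose handling, 7 were higher and 3 of them 4-fold (median 1.56). Slc38a5, a glutamine transporter known from alpha cells, ran to 21874 CPM in Ngn3Cre cells (median 9718) and to 18877 CPM in HZ cells (median 2637), with pools at 10480 and 3555 CPM. It was at 5000 CPM in 77.4% of Ngn3Cre and 35.6% of HZ cells. The 3 genes past 4-fold were Slc7a2 (38.1 against 4.06 CPM), an arginine transporter, Slc7a14 (57.8 against 13.2 CPM) and Gipr (41.7 against 6.79 CPM), the receptor for the incretin GIP. Slc2a3, a glucose transporter, was lower in the whole Ngn3Cre pool at 114 against 346 CPM, and higher among gated cells at 63.5 against 23.4 CPM.

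Of 18 genes of the unfolded protein response and secretion, 15 were higher in Ngn3Cre, 1 of them 4-fold, with a median of 0.56. That gene was Dnajb9, a chaperone of the endoplasmic reticulum, at 52.3 and 12.7 CPM. Herpud1 stood at 102 and 38.4 CPM. Beside these, some genes that dissociation can induce were 4-fold higher: Fos (34.9 against 3.76 CPM), Egr1 (43.8 against 8.31 CPM) and Junb (34.5 against 6.83 CPM). In all 5 of 8 members of that list were higher, near the share of 55.7% among all genes tested. The 15 listed genes summed to 1086 CPM in Ngn3Cre and 661 CPM in HZ. The Fos ratio was as large among gated cells (37.5 against 3.83 CPM). The part of handling in these differences was not tested.

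Progenitor genes were lower in Ngn3Cre. Of 10 pancreatic progenitor genes with 20 CPM, 8 were lower and 1 of them 4-fold (median -1.15). Hes1, the Notch effector that represses Neurog3, stood at 13.3 and 58.7 CPM and reached 50 CPM in 4 Ngn3Cre and 37 HZ cells. Sox9, a factor of bipotent progenitors, stood at 38.8 and 129 CPM, Gata4 at 16.3 and 41.7 CPM, and Onecut2 at 47.1 and 130 CPM. Foxa2, kept in endocrine cells, was higher at 257 against 165 CPM. Pdx1, which marks pancreatic and duodenal endoderm, was under 20 CPM in both pools (15.4 and 10.4 CPM) and was at 50 CPM in 9 and 10 cells.

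Among 12 Notch pathway genes with 20 CPM, 6 were higher and 6 lower, with a median of -0.10. Of the ligands, Dll3 and Jag2 were higher in Ngn3Cre at 364 against 142 CPM and 20.3 against 7.94 CPM, Dll1 stood at 51.8 and 46.3 CPM, and Jag1 was lower at 8.75 against 21.6 CPM. Both receptors with 20 CPM, Notch2 and Notch3, were lower, Notch3 at 14.6 against 47.6 CPM. Notch2 ran from 0 to 251 CPM in Ngn3Cre cells (median 0.604) and from 0 to 1566 CPM in HZ cells (median 24.9), with pools at 19.6 and 152 CPM. Its groups overlapped, but 12.3% of Ngn3Cre and 43.6% of HZ cells reached 50 CPM.

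Patterning genes of the gut were lower. Of 6 intestinal and hindgut genes with 20 CPM, 5 were lower and 3 of them 4-fold (median -1.89). Cdx2 ran from 0 to 106 CPM in Ngn3Cre cells and from 0 to 778 CPM in HZ cells, with both medians at 0. Its pools stood at 3.66 and 45.8 CPM, and 2 Ngn3Cre and 25 HZ cells were at 50 CPM. Lgals2 and Tspan8, genes of gut epithelium, stood at 2.69 against 65.7 CPM and 4.20 against 21.1 CPM. Of 4 Hedgehog genes with 20 CPM, 3 were lower and 2 of them 4-fold (median -1.61): Ihh, a ligand, at 2.63 against 20.4 CPM, and Gli3, a transcriptional effector, at 6.18 against 28.8 CPM. The ligand Shh was under 20 CPM in both pools, at 1.68 and 17.0 CPM.

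Of 13 Wnt and retinoic acid genes with 20 CPM, 11 were lower in Ngn3Cre and 6 of them 4-fold (median -1.91). Rarb, a retinoic acid receptor, stood at 2.04 and 26.0 CPM, the secreted Wnt inhibitor Sfrp1 at 2.15 and 21.6 CPM, and the Wnt receptors Fzd5 and Fzd7 at 3.97 against 27.8 CPM and 9.76 against 64.2 CPM. The retinoic acid binding proteins Crabp1 (95.8 against 504 CPM) and Crabp2 (26.6 against 162 CPM) were lower among gated cells too, at 83.2 against 1011 CPM and 23.4 against 226 CPM (9.03 against 674 CPM and 17.8 against 161 CPM with Epcam at 50 CPM). At 24 somites Crabp1 was higher in Ngn3Cre, with a log2 ratio of 3.48.

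Cell cycle genes were lower in nearly every case. All 24 genes of G2 and M phase were lower in Ngn3Cre, 9 of them 4-fold (median -1.93), and 19 of 20 genes of S phase, 5 of them 4-fold (median -1.04). Mki67, a marker of cycling cells, stood at 15.6 and 101 CPM, with 9.43% and 25.5% of cells at 50 CPM. Top2a, the mitotic topoisomerase, stood at 43.1 and 206 CPM, and Cdc6, which loads replication origins, at 2.67 and 22.6 CPM with no cell of 106 (by the floor of 3 cells, a count of 0 still allows a share of 2.83%) and 16 cells of 149 at 50 CPM. Of 38 Mki67 cells in HZ 11 also had Neurod1 at 50 CPM, and of 10 in Ngn3Cre 8 had it. Over all cells Neurod1 reached 50 CPM in 79 of 149 HZ and 99 of 106 Ngn3Cre cells. Mki67 was at 50 CPM in 7.14% of gated Ngn3Cre, 10.3% of gated HZ and 42.3% of other HZ cells. Mcm2, which loads onto origins, was the 1 S phase gene not lower, at 127 against 101 CPM. Among 11 genes of the cell cycle exit list, which holds cyclins beside inhibitors, 5 were higher and 6 lower (median -0.23). Cdkn1a, the inhibitor p21, stood at 1192 and 656 CPM, and Cdkn1b, another inhibitor, at 107 and 125 CPM. The cyclins Ccnd1 and Ccnd2 were lower at 14.1 against 37.9 CPM and 141 against 318 CPM.

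Epithelial adhesion genes were moderately lower, 13 of 17 with a median of -0.56. Grhl2, an epithelial transcription factor, stood at 3.57 and 23.7 CPM and Cldn3, a tight junction protein, at 9.46 and 39.4 CPM, both past 4-fold. Cdh1, E-cadherin, stood at 49.9 and 120 CPM, and the keratin Krt8 was level at 956 and 964 CPM. All 5 genes of the mesenchymal switch with 20 CPM were lower too (median -0.47). Mmp14, a membrane matrix metalloproteinase, was the 1 of them past 4-fold, at 11.8 against 52.2 CPM.

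**Figure D3:**
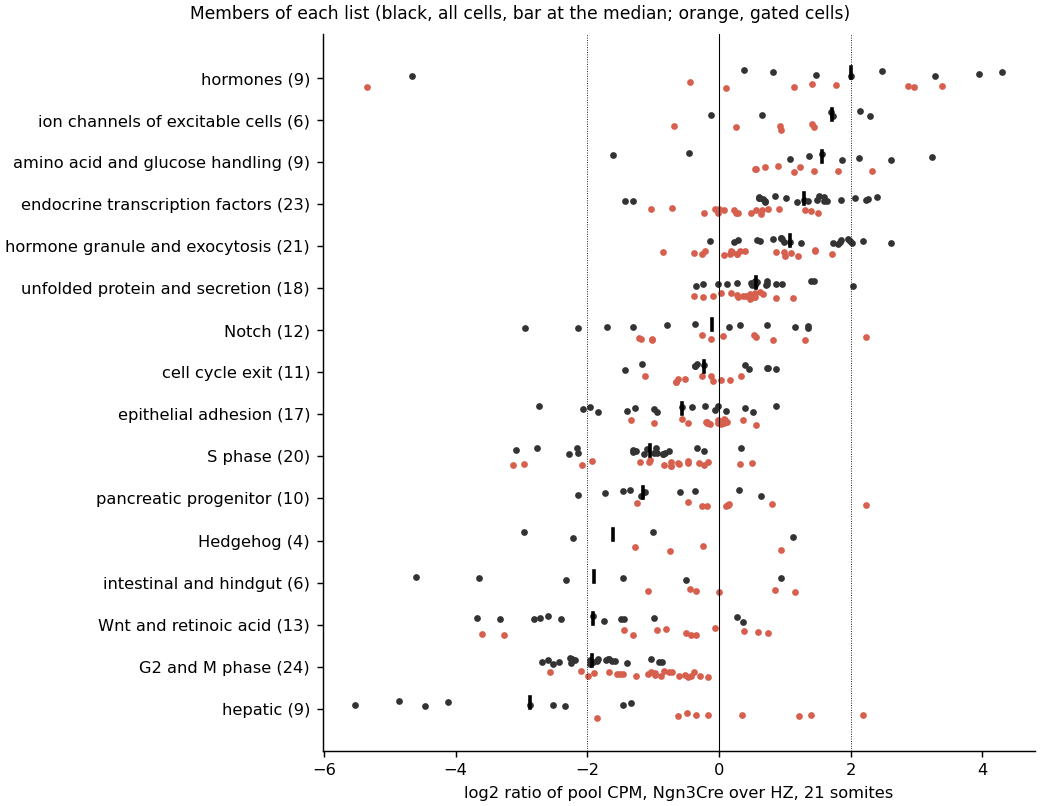
Log2 ratio of pool CPM, Ngn3Cre over HZ at 21 somites, for the members of 16 lists with 20 CPM in the higher pool (number in brackets), over all cells (black, median as a bar) and over gated cells (orange, without the 6 gate genes, and also where the gated pools were under 20 CPM). Medians run from 2.01 for hormones to -1.93 for G2 and M phase and -2.87 for the hepatic list, and orange points lie closer to 0 than black ones for most lists.

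Markers of other cell types moved with these differences. Of 12 hepatic markers, 9 had 20 CPM, all 9 were lower in Ngn3Cre and 7 of them 4-fold. Their summed level over the 12 genes was 152 CPM in Ngn3Cre (highest cell 2843 CPM) and 1622 CPM in HZ (highest cell 40397 CPM). Apoa1, an apolipoprotein of liver and yolk sac, had the lowest ratio at 12.5 against 576 CPM, but 5 cells held 97.7% of the HZ reads. Afp, alpha-fetoprotein, stood at 65.2 and 477 CPM. Without the 1 Ngn3Cre and 11 HZ cells whose hepatic sum was above 1000 CPM, the Apoa1 log2 ratio was -1.70 rather than -5.53, and the counts past 4-fold were 40 higher and 174 lower. All 3 visceral endoderm genes with 20 CPM were lower, with Cubn, the endocytic receptor cubilin, at 2.23 against 83.3 CPM. Of 10 neural genes 6 were higher and 4 lower in all cells (summed 2503 and 1976 CPM over 22 genes), and of 12 mesenchymal markers 1 had 20 CPM, at a log2 ratio of -0.18. Among 5 sex-linked genes 3 were higher and 2 lower, and Y-linked RNA without Xist was seen in 67 of 106 Ngn3Cre and 59 of 149 HZ cells. The part of these markers in the other differences was not tested, except where the gate or the left-out cells measured it.

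Restricting both groups to gated cells kept the direction of the genes higher in Ngn3Cre, at a smaller size. Of 7621 genes with 20 CPM, 19 were 4-fold higher (0.249%) and 52 were 4-fold lower in gated Ngn3Cre cells (0.682%). The 6 gate genes are left out here. Of the other 49 genes that were 4-fold higher over all cells, 49 were still higher and 18 still 4-fold, with a median log2 ratio of 1.76 against 2.31 for the 51. Of the 170 genes 4-fold lower over all cells, 141 were still lower and 39 still 4-fold, with a median of -1.18 against -2.51. With Epcam at 50 CPM as well, 18 genes were 4-fold higher and 39 lower, and of the genes called over all cells 49 of 49 were still higher (median 1.63) and 136 of 170 still lower (median -1.08). These genes were picked in the same cells, and the gate keeps 98 of the 106 Ngn3Cre cells. Kept directions are therefore not independent of the comparison over all cells. Gcg stayed far apart at 3468 against 331 CPM, and Pyy stood at 2281 and 1032 CPM. Pnliprp1, a pancreatic lipase-related protein, was also lower within the gate, at 1.67 against 36.7 CPM, and reached 50 CPM in 3 of 106 and 43 of 149 cells overall.

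Several other differences shrank or turned. Nkx2-2 was level in gated cells, at 151 against 153 CPM. Sox9 was level at 18.6 against 17.0 CPM, and Hes1 turned to 9.69 against 2.07 CPM. Cdx2 was close to absent from gated cells of both groups (1.79 and 0.800 CPM) and stood at 86.1 CPM in HZ cells outside the gate. Notch2 remained lower in gated Ngn3Cre cells but by less, at 15.0 against 30.3 CPM (log2 ratio -1.02, against -2.95 over all cells). It stood at 261 CPM in HZ cells outside the gate. All 11 G2 and M phase genes with 20 CPM were lower within the gate (median -1.03), and in gated cells with Epcam 5 of 6 were (median -0.58), with Mki67 at 4.23 against 15.7 CPM. Neural genes, split over all cells, were lower in 12 of 12 within the gate (median -1.13, 4 of them 4-fold). Where Epcam was required too, 11 of 11 were lower (median -0.81). The part of gated cells with almost no Pax6 or Slc38a5 in these values was not tested.

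The same split appeared inside the HZ group alone. Of the 170 genes lower in Ngn3Cre, 117 (68.8%) were 4-fold higher in HZ cells outside the gate than in HZ cells inside it, against 3.24% of all genes tested. Of the 49 higher genes with a value, 28 (57.1%) were 4-fold lower outside the gate, against 4.01%. The HZ cells used here also form the 21-somite comparison, so these values describe those cells and are not independent of it.

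**Figure D4:**
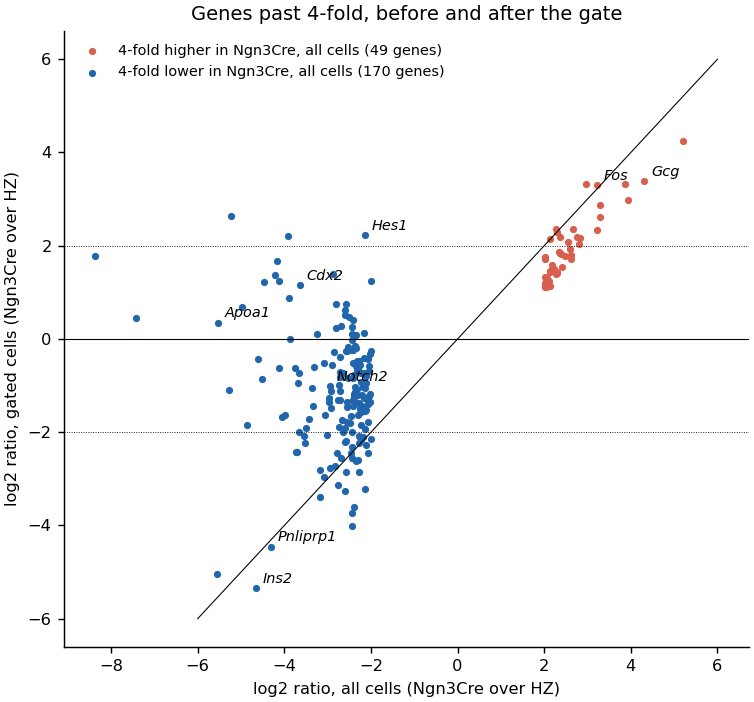
Log2 ratio of pool CPM, Ngn3Cre over HZ at 21 somites, over all cells (horizontal) and over gated cells (vertical), for the 49 genes 4-fold higher (orange) and the 170 genes 4-fold lower (blue) in all cells. All 49 orange points lie above 0, and 141 of the 170 blue points lie below it, with Apoa1, Cdx2 and Hes1 among those above.

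At later stages most of these differences had the same direction, with smaller medians. Of the 51 higher genes 45 were higher at 24 somites (155 Ngn3Cre and 85 HZ cells, median 1.22) and 45 at 27 somites (69 and 26 cells, median 0.97). Of the 170 lower genes 146 were lower at 24 somites (median -1.14), and 132 of 167 with a value at 27 somites (median -1.04). Over all genes tested 52.9% and 54.5% were higher at those stages. Neurog3 stood at 153 against 90.0 CPM at 24 somites and at 201 against 81.1 CPM at 27 somites. Gcg stood at 9791 against 2058 CPM and then at 10698 against 10233 CPM, so the HZ pool had come level. Fev had a log2 ratio of -0.16 at 24 and 3.03 at 27 somites. All 24 genes of G2 and M phase were lower at both later stages (medians -0.94 and -2.70). Other lists that were lower at 21 somites stood on the other side at 27 somites: 15 of 17 epithelial adhesion genes (median 0.27), 7 of 10 pancreatic progenitor genes (median 0.77) and 6 of 9 hepatic markers (median 0.20) were higher in Ngn3Cre there.

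**Figure D5:**
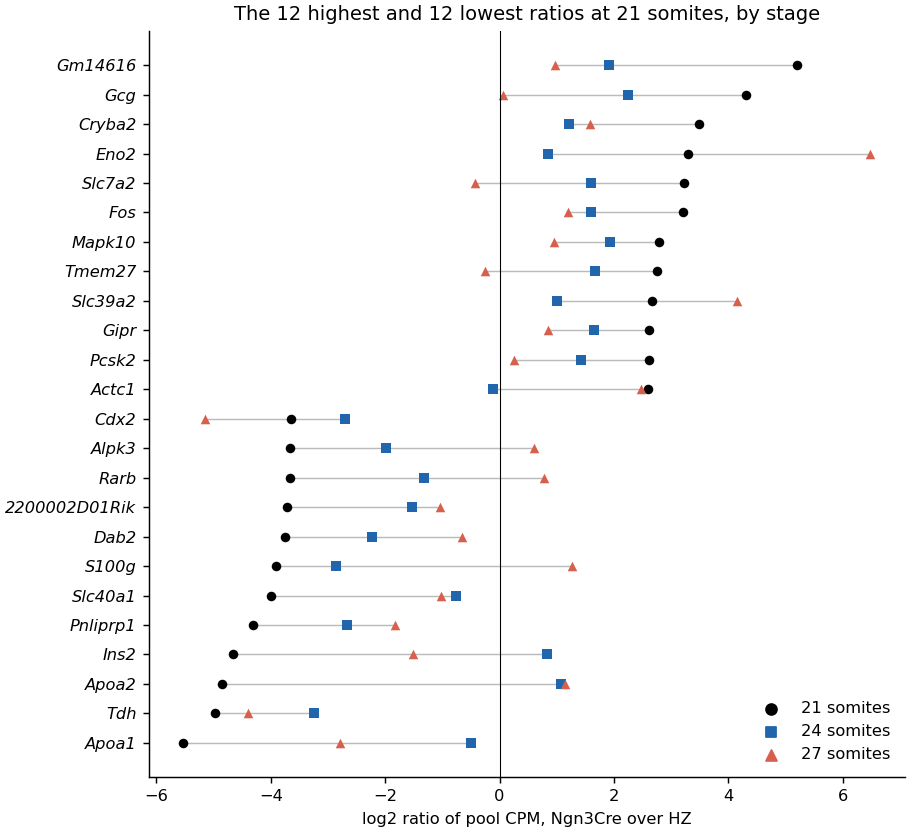
Log2 ratio of pool CPM, Ngn3Cre over HZ, for the 12 highest and 12 lowest ratios at 21 somites (circles), with the same genes at 24 (squares) and 27 somites (triangles). Ins2 and Apoa2 are among the genes that change sign between stages, Cdx2 and Tdh stay below 0 at all 3, and the Eno2 value at 27 somites rests on 0 reads in HZ.

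The only test with replicates took stages as replicates: edgeR's quasi-likelihood test on 11 pools with terms for genotype and stage. The 11 pools include those of another genotype, Ngn3-GFP/GFP (labelled HM), at 15 to 24 somites. The p-values weigh the difference between Ngn3Cre and HZ against a spread that all genotypes share, HM included. They therefore do not measure only how evenly that difference held over the 21-, 24- and 27-somite pools. Of 18420 genes, 1 was higher in Ngn3Cre (0.00543%) and 61 were lower (0.331%) at an adjusted p under 0.05, and 1938 had an unadjusted p under 0.05. None of the 51 genes 4-fold higher at 21 somites passed the test, and 25 of the 170 lower genes did. The 21-somite pools that picked these genes are part of the fit, so the 25 are not independent support. Of the named genes lower at 21 somites, Cdx2 (log2 difference -3.94 ± 0.49 SE, edgeR adjusted p 0.0222), Lgals2 (0.0185), Tdh (0.0222), Mmp14 (0.0185), Shh (0.00766), Cenpe (0.0231), Aspm (0.0362), Tspan8 (0.0452) and Top2a (0.0452) fell. Of 11 fits that each left out a pool, Lgals2 and Shh passed in 10, Cdx2, Tdh and Mmp14 in 9, Cenpe in 8, Aspm in 5 and Tspan8 in 3. Of the lists, 7 of 24 genes of G2 and M phase fell, 3 of 18 intestinal genes, and 1 of 24 Wnt and retinoic acid genes, Fzd2 (0.0260), a Wnt receptor. No endocrine factor, hormone or granule gene passed: the fitted log2 difference was 1.43 ± 0.39 SE for Neurog3 (edgeR adjusted p 0.174), 2.80 ± 1.04 for Gcg (0.345) and 2.12 ± 0.45 for Cryba2 (0.0925). The 1 higher gene was Aplp1, an amyloid precursor-like protein, named here after its values were seen, at 228 against 93.9 CPM at 21 somites (edgeR adjusted p 0.0417, lost in 6 of 11 fits that left out a pool). Without the Ngn3Cre pool of 21 somites 0 genes passed in either direction, and without the HZ pool of that stage 6 fell. Without the HM pool of 24 somites 17 fell, and without Ngn3Cre at 24, Ngn3Cre at 27 or HZ at 27 somites 101, 99 or 103 fell.

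A further edgeR term asked whether the 21-somite difference went beyond that at 24 and 27 somites. It called 0 genes higher and 0 lower (0.0% each), with 392 at an unadjusted p under 0.05, and it assumes that the single Ngn3Cre pool varied like the others. DESeq2 called 11 higher and 58 lower with the same terms. So the sizes at 21 somites given above cannot be set apart from those of the later stages by the edgeR test. Among the genes named, Neurod1, Ghrl, Gnas, Pcsk2, Ptprn, Slc7a2, Slc39a2, Junb, Notch3, Shh, Lgals2, Tdh, Rarb, Grhl2, Cldn3, Ccnd2, Xist and 2200002D01Rik share exon bases with another annotated gene. Whether the counting used strand is not stated in the labels, so their levels are uncertain by the reads of the neighbour.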

How the data were processed

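Single cells of mouse endoderm were sequenced with Smart-seq3xpress. The submitters' processing notes name FastQC 0.11.9, Trimmomatic 0.39, HISAT2 2.1.0 and the build GRCm38 (mm10), and the labels do not state the read counter, annotation, use of molecular identifiers or filters on cells. The authors deposited a table of raw counts per gene and cell and a table of TPM (transcript levels scaled for gene length and cell total) for the same cells. A median of 58.3% of a cell's nonzero counts were even numbers. Groups came from the labels, which distinguish no batch within the comparison, no embryo and no donor. Cells were summed per genotype and stage, a gene under 3 reads in a pool was set to 3 for a ratio, and 3 pools of under 10 cells were left out. No doublet caller was run.

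edgeR 4.0.16 (R 4.3.3, TMM, filterByExpr, glmQLFit, glmQLFTest, Benjamini-Hochberg adjustment at 0.05) tested 11 pools. Its p-values rest on a spread between stage pools that all genotypes share. On simulated data with known changes the 3-stage test recovered 46, 35, 46 and 50 of 50 genes changed by -4, -2, 2 and 4 on the log2 scale (17932 genes), and the test beyond 24 and 27 somites 35, 8, 17 and 49 of 50 (17954 genes). These recoveries describe the simulated data. Recovery was not tested for genes whose reads lie mostly in a few cells of a pool, such as Gcg, Iapp and Ppy. The power of either test for such genes is therefore not known. Share intervals are exact Clopper-Pearson, and the share that a count of 0 allows is 3 cells of the total.

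The comparison, gate and gene lists were chosen with earlier results of these data known. Named genes are the 12 highest and 12 lowest ratios among genes at 10 CPM in 20% of cells, up to 4 members per list with the largest ratio, and landmark genes. Afp, Cck, Cdh1, Cdkn1b, Crabp1, Crabp2, Dll1, Foxa2, Fzd2, Ins1, Insm1, Jag1, Jag2, Krt8, Mcm2, Nkx2-2, Sct, Slc2a3, Slc38a5, Sox4, Sox11, Sst and Top2a are further list members, named after their values were seen. Alternatives were mean CPM per cell, deep or thinned cells, the TPM, TMM scaling, a 50 CPM minimum, other gates, DESeq2 1.42.0, other scaling and filters, and leaving out pools. Leaving out cells rich in hepatic markers, and keeping only cells with Epcam at 50 CPM, were chosen after seeing the data. A few items are not reported here.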

Additional observations from a re-analysis of the deposited data

Results flagged for a closer look

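Apoa2, an apolipoprotein made by liver and yolk sac cells, had a log2 ratio of Ngn3Cre over HZ of -4.86 at 21 somites (4.44 against 129 CPM) and of 1.08 at 24 and 1.14 at 27 somites, so the pools stood on opposite sides at different stages. In HZ at 21 somites 5 cells held 94.0% of its reads, and over other ways of summing the cells the ratio ran from -4.97 to -1.48. The edgeR test of the 21-somite difference beyond that of the later stages gave an adjusted p of 1.0.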

How the results depend on the processing

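All 51 genes 4-fold higher at 21 somites kept their direction under the other ways of summing or choosing cells. So did the 170 lower genes, except 1 when cells were thinned. The 50 CPM minimum leaves every ratio as it was, and TMM scaling shifts all ratios by the same small amount. Neither could turn a direction. The other ways reused cells and reads in which these genes were picked, so directions kept there are not independent support. Within the gate 141 of 170 lower genes kept their direction. The counts themselves depended on how cells were summed and on the minimum: 29 higher and 108 lower with the mean CPM per cell, 31 and 110 with thinned cells, 20 and 63 with the authors' TPM, and 23 and 62 at 50 CPM. With 2 of 6 gate genes the gate held 97.2% of Ngn3Cre cells, and with 4 of 6 it held 75.5% of Ngn3Cre and 28.2% of HZ cells. Within the gate 33 genes were 4-fold lower with thinned cells, against 52.

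Over the 3 stages, edgeR's 1 higher and 61 lower genes became 216 and 704 with DESeq2, 2 higher with RLE scaling, 6 and 99 without a filter on low counts, 3 higher with deep cells and 22 higher with Ngn3Cre and HZ pools alone. Without both 21-somite pools edgeR called 0 and 0 (885 at an unadjusted p under 0.05), and in gated cells 0 and 0 (714). Leaving out 1 pool gave 0 to 11 higher and 0 to 103 lower genes. The fitted log2 differences of Tdh (0.10), Cdx2 (0.37), Tspan8 (0.14) and Shh (0.38) turned positive with gated cells alone; the cause was not tested. The test beyond the later stages gave 11 and 58 genes with DESeq2 and 0 to 2 lower genes with 1 pool left out. With the mean CPM per cell, the direction held for 91.7% of lower genes at 24 somites, and for 62.1% of higher and 70.8% of lower genes at 27 somites. No paired analysis was possible because the replicate numbers in the labels name single cells. Each genotype at 21 somites is 1 pool, so the ratios of that stage have no error beyond counting.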

Other observations

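Nkx6-1, a factor of pancreatic progenitors and beta cells, was under the 20 CPM minimum and is given here after its values were seen. It stood at 14.3 CPM in Ngn3Cre and 0.378 CPM in HZ at 21 somites and reached 50 CPM in 10 of 106 and 0 of 149 cells, and by the floor of 3 cells a count of 0 still allows a share of 2.01% in HZ. Among gated cells it stood at 15.3 and 0.267 CPM. Later the pools were closer, at 13.3 and 7.49 CPM at 24 somites and 17.5 and 13.0 CPM at 27 somites. Of its Ngn3Cre reads at 21 somites 5 cells held 69.9%, and no test was made of it.

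Within HZ, Gcg stood at 4.36 CPM at 18, 161 CPM at 21, 2058 CPM at 24 and 10233 CPM at 27 somites, while Ins2 stood at 15.4, 37.7, 57.2 and 62.4 CPM. In Ngn3Cre, Ins2 stood at 1.49 CPM at 21, 102 CPM at 24 and 21.9 CPM at 27 somites. Each value is 1 pool.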
